A study of Mus musculus with 18 samples.

Results

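RNA polymerase I is the nucleolar enzyme that transcribes the ribosomal RNA genes, and its machinery is built from the core subunits, the promoter selectivity factor SL1, the architectural factor UBF and the initiation factor encoded by Rrn3. MYC is a transcription factor that binds DNA at E-box sequences with its partner MAX and is known for raising the output of ribosome production, in part through genes of this machinery. The 10 genes described here, of 21887 protein-coding genes in the RefSeq table, were taken as a named list: the polymerase subunit genes Polr1a, Polr1b, Polr1c, Polr1d and Polr1e, the SL1 subunit genes Taf1a, Taf1b and Taf1c, the UBF gene Ubtf, and Rrn3. A gene was counted as bound in a library when the summit of a MYC peak lay within 1 kb of either end of its span in mm10.

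The peaks come from ChIP-seq with a MYC antibody on liver tumours of FVB mice, frozen before crosslinking, with 9 MYC libraries and 9 input libraries. All groups carried LAP-tta and TRE-MYC, a tetracycline-controlled pair that switches a MYC transgene on in the liver when doxycycline water is withdrawn, so the MYC transgene was present in every group and none was a normal liver. On top of these, the Homo tumours were Arid1afl/fl with Alb-cre (age about 100 days), the Het tumours Arid1afl/+ with Alb-cre (about 70 days) and the WT tumours Arid1aflfl with no Cre (about 55 days). Each genotype had 3 MYC libraries. The Arid1a protein belongs to SWI/SNF, a complex that remodels chromatin, and albumin-Cre removes floxed alleles in hepatocytes and other albumin-expressing cells. Genotype, Cre and age changed together and cannot be told apart, and a whole tumour also holds cells in which the albumin promoter is not active. The labels do not state whether the 3 libraries of a genotype were made from different mice. A p-value here therefore reflects variation among libraries, part of which may be technical.

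The lists were of very unequal length, from 51 peaks in Homo replicate 2 to 4291 in WT replicate 3. Homo replicate 2 and WT replicate 1 stood apart, with 17.6% and 15.2% of their peaks at gene ends, compared with 43.9% to 64.4% in the other 7 libraries. Neither held a peak at any of the 10 genes, so each number of libraries given below is the same without them. Read depth, solved from the deposited peak values, was 8.60 to 12.4 reads per kb in the Homo, 7.80 to 15.2 in the Het and 11.1 to 14.8 in the WT MYC libraries. Peak lists hold no expression values, so neither the loss of Arid1a nor the tissue could be checked from them. Of 8 hepatocyte marker genes only Cebpa (2 libraries) and Apoa1 (1 library) had a MYC peak at an end, and 0 of 6 immune, 0 of 7 endothelial and stellate and 0 of 4 cholangiocyte markers had one. Over all protein-coding genes, 14.9% had a peak in at least 1 library, so lists this short show no contrast between cell types.

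MYC peaks recurred at 3 of the 10 genes: Polr1b (6 of 9 libraries), Taf1c (4) and Rrn3 (4), which is 30% of the list, whereas 8.03% of all protein-coding genes had a peak in at least 2 libraries. Over all genes, 0.521% had a peak in at least 6 libraries and 3.03% in at least 4. Polr1a and Polr1e had a peak in 1 library each, the longest list, WT replicate 3, in which 14.1% of all genes had one. Polr1c, Polr1d, Taf1a, Taf1b and Ubtf had none by this rule. Thus 5 of 10 genes had a peak in at least 1 library, against 14.9% of all genes, and the median number of libraries was 0.5 for the 10 genes and 0 for all genes. No test was run on the list, because its members were chosen with results known.

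**Figure D1:**
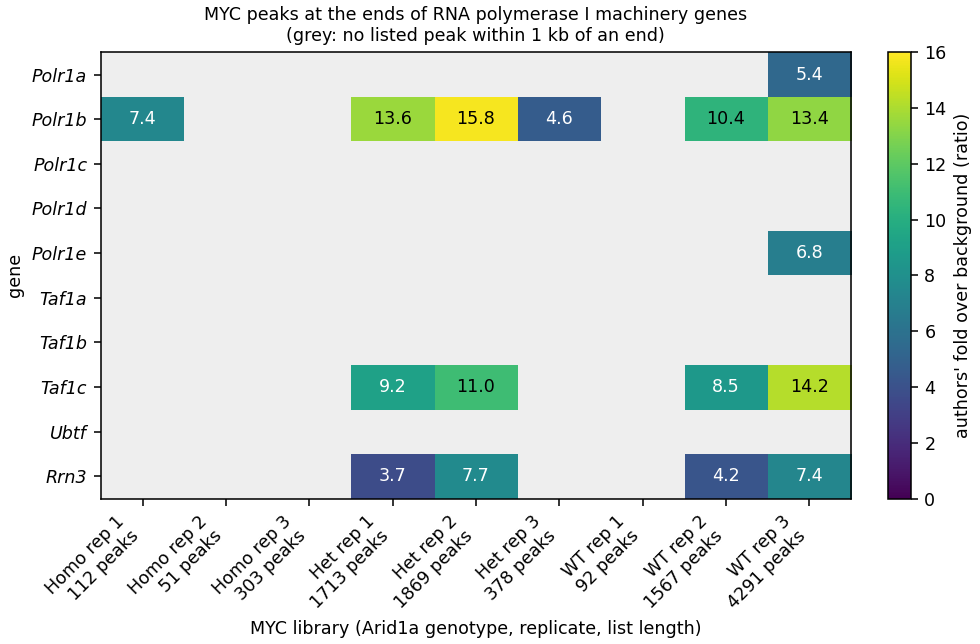
Authors' fold over background (ratio, colour and printed value) of the MYC peak at each gene (rows) in each library (columns, with list length), grey where no peak was listed within 1 kb of an end and the higher value where a gene had more than 1 peak. Polr1b is filled in 1 Homo, 3 Het and 2 WT libraries, and Taf1c and Rrn3 in the same 2 Het and 2 WT libraries.

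The promoters of the 3 recurrent genes and of Polr1c are shown to set sequence beside occupancy. They are the 250 bases before the transcription start in the RefSeq promoter table (GRCm38.p6, the assembly behind mm10), read 5′ to 3′ on the gene's strand. Their positions are Polr1b chr2:129100746-129100995 (plus), Taf1c chr8:119605207-119605456 (minus), Rrn3 chr16:13780449-13780698 (plus) and Polr1c chr17:46248046-46248295 (minus). Capitals mark matches to CACGTG, the canonical E-box, and to its non-canonical relatives CACGCG and CACGAG, each searched on both strands.
Polr1b: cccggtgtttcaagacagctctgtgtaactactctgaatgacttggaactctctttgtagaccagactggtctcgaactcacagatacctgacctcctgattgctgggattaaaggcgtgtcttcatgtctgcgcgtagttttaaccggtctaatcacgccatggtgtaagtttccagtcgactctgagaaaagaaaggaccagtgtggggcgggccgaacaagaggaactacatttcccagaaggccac
Taf1c: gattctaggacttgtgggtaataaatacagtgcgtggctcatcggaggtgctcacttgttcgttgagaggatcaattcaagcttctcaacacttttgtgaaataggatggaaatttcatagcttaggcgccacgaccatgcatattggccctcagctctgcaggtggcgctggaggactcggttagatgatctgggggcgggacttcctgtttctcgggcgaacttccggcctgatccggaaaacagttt
Rrn3: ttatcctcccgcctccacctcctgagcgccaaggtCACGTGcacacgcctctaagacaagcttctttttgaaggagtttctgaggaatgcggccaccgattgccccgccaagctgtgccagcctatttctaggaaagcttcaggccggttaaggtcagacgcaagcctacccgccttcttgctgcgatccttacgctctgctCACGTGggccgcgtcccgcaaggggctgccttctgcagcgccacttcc
Polr1c: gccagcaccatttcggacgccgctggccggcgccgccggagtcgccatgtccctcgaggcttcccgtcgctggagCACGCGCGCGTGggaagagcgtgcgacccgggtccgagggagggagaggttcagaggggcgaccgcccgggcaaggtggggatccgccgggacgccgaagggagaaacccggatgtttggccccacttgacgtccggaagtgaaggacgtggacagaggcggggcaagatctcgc
Rrn3 was the only one of the 10 genes with CACGTG in its window of 250 bases before to 50 after a listed start, and it held 2 copies, whose first bases lay at -215 and -48, counted from the first transcribed base as 0. Polr1c held a pair of adjoining CACGCG matches, 1 on each strand, and had no MYC peak in any library. Polr1b and Taf1c, whose peaks reached the highest folds of the 10 genes, had none of the motifs in the bases shown. Over the full window Polr1b held 1 CACGAG, 43 bases after the first transcribed base, and Polr1e and Ubtf held CACGCG. The Polr1b match lay within all 6 of its peaks. The Polr1e match, 42 bases after the first transcribed base, lay within its peak in WT replicate 3. Matches at 1 Ubtf start lay within a peak of WT replicate 3, over 1 kb from the span ends. The match at another Ubtf start lay within no peak. The canonical CACGTG stood in 18.9% of the promoter windows of genes with a peak in at least 2 libraries and in 7.84% of all 21263 windows of protein-coding genes. The shares were 30.0% of bound and 12.1% of all windows for CACGCG, and 13.0% of bound and 7.12% of all windows for CACGAG. The summits at Polr1b and Taf1c lay beyond the window on the transcribed side, so the sequence under them was not searched.

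Among the polymerase subunits, Polr1b, which encodes the second-largest subunit and forms the catalytic cleft together with the largest, had the most regular peak. The authors' fold was 7.42 in Homo replicate 1, 13.6, 15.8 and 4.65 in Het replicates 1, 2 and 3, and 10.4 and 13.4 in WT replicates 2 and 3. The peak was thus listed in 1 of 3 Homo, 3 of 3 Het and 2 of 3 WT libraries. The Het folds spanned those of both other genotypes, and the 1 Homo fold lay below the 2 WT folds. Its rank by fold, with 1 the highest, was 42 of 112 in Homo replicate 1, 65 of 1713, 47 of 1869 and 352 of 378 in the Het libraries, and 179 of 1567 and 209 of 4291 in WT replicates 2 and 3. The peak was therefore among the stronger ones of the long lists and near the bottom of Het replicate 3. The authors' −log10 q ran from 3.98 in Het replicate 3 to 32.8 in Het replicate 2, with 9.52 in Homo replicate 1. All 6 summits fell within 73 bp of each other, 91 to 164 bp downstream of the listed start (span chromosome 2, 129100970 to 129128060, plus strand). The divergent lncRNA gene Gm46764 ends 26 bp before the Polr1b span, and all 6 peaks counted for both genes. Presence over the 3 genotypes did not pass the test (two-sided exact permutation p = 0.679, Benjamini-Hochberg adjusted p = 1 over 3264 genes). With 3 libraries per genotype this test could hardly pass any gene.

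Polr1a, the largest catalytic subunit gene, had a pair of weak peaks in WT replicate 3 only, with folds of 5.41 and 4.57 (ranks 3286 and 3840 of 4291). Their summits lay 390 bp upstream of the start and 17 bp downstream of it. The divergent gene Ptcd3, which encodes a protein of the mitochondrial ribosome, ends 279 bp before Polr1a, and both peaks lay within 1 kb of both genes. The summits lay at -110 and 297 bp from this Ptcd3 end. The first was thus inside Ptcd3 and nearer to its end than to Polr1a. Polr1e, which encodes the PAF53 subunit, had a peak 37 bp downstream of its start in WT replicate 3 only, with a fold of 6.84 and rank 2123 of 4291. Polr1c, which encodes a subunit shared by RNA polymerases I and III, had no peak inside it or within 5 kb in any library.

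Polr1d encodes the other subunit shared by both polymerases and was excluded by the 1 kb rule by a small margin. Peaks with folds of 5.48 in Het replicate 1, 5.53 in Het replicate 2 and 5.33 in WT replicate 3 had summits 1053, 1100 and 1064 bp from the start of its RefSeq span, and no Homo library had one. The same summits lay 422 to 469 bp downstream of the transcription start in the promoter table, because the span begins further upstream. The widest distance of a counted peak was 390 bp, at Polr1a, so the 10 genes had no summit between 390 and 1053 bp of an end. With windows placed at the listed starts instead, 4 of the 10 genes had a peak in at least 2 libraries, against 6.96% of all genes (1523 of 21887). Only 17492 of all these genes had a listed start and could be counted, whereas each of the 10 genes had one. The 6.96% is therefore lower than the share among genes with a listed start.

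**Figure D2:**
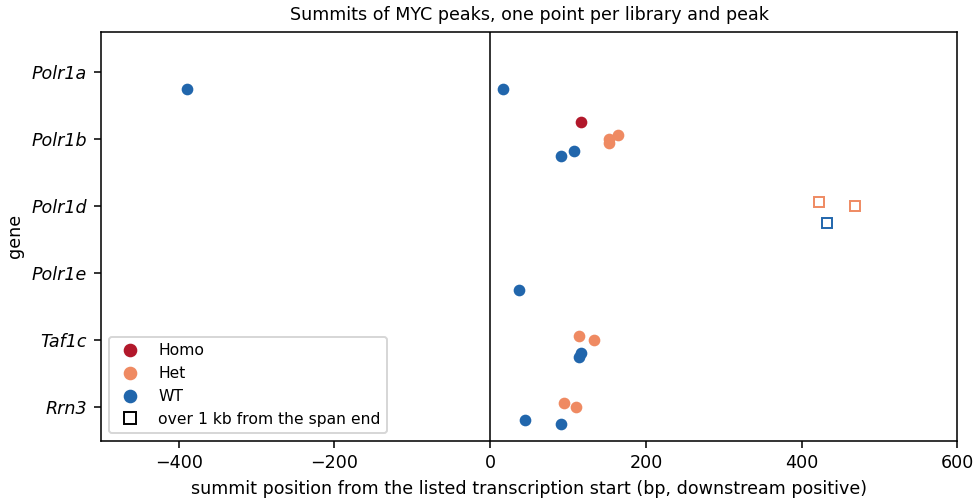
Position of each MYC summit relative to the nearest transcription start in the promoter table (bp, horizontal axis) for the 6 genes named on the vertical axis, coloured by genotype, with small vertical offsets between libraries for legibility. The summits of Polr1b, Taf1c and Rrn3 lie 45 to 164 bp downstream of the start, and those of Polr1d (open squares) 422 to 469 bp downstream.

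SL1 is the TBP-containing complex that recognises the ribosomal RNA gene promoter, and of Taf1a, Taf1b and Taf1c only Taf1c carried peaks. Its fold was 9.16 and 11.0 in Het replicates 1 and 2 and 8.51 and 14.2 in WT replicates 2 and 3, with no listed peak in the 3 Homo libraries, Het replicate 3 or WT replicate 1. The ranks by fold were 283 of 1713, 209 of 1869, 360 of 1567 and 167 of 4291 in the same order. The −log10 q of 41.2 in WT replicate 3 was the highest of any peak at the 10 genes. The 4 summits lay within 19 bp of each other, 114 to 133 bp downstream of the start (span chromosome 8, 119597974 to 119605206, minus strand). No other gene end lay within 1 kb, so this peak was shared with no neighbour. Presence at Taf1c over the genotypes did not pass the test (0 of 3 Homo, 2 of 3 Het and 2 of 3 WT libraries, exact permutation p = 0.357, adjusted p = 1). Taf1a and Taf1b, the genes of the other SL1-specific subunits on the list, had no peak inside them or within 5 kb in any library.

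Rrn3 encodes TIF-IA, which bridges RNA polymerase I to the promoter-bound factors and through which growth signals act on initiation. Its fold was 3.75 and 7.67 in Het replicates 1 and 2 and 4.22 and 7.36 in WT replicates 2 and 3, with no listed peak in the other 5 libraries. The ranks by fold were 1677 of 1713, 791 of 1869, 1474 of 1567 and 1708 of 4291, so in Het replicate 1 and WT replicate 2 the peak stood near the end of the list. The local input background under it, in reads scaled to the input, was 4.0 in Het replicate 1 and 4.0 in WT replicate 2. It was 1.19 in Het replicate 2 and 3.0 in WT replicate 3. Relative to the genome-wide background of each library, it was 4.73 and 3.49 in Het replicate 1 and WT replicate 2. In Het replicate 2 and WT replicate 3 it was 1.65 and 2.75. The fold is by definition a ratio over the local background. Heights that do not use the local background are given below. The lower folds stood beside both higher backgrounds and lower heights (20.9 and 17.5, against 21.9 and 26.1). The share of each in the folds was not tested. The 4 summits lay 45 to 110 bp downstream of the start (span chromosome 16, 13780699 to 13814841, plus strand), and thus on the downstream side of both E-boxes. The E-box at -48 lay within all 4 peaks, and the E-box at -215 lay outside them. The pseudogene Gm6354 ends 512 bp before Rrn3, and the peaks counted for both. The presence pattern was that of Taf1c, with the same exact permutation p of 0.357 (adjusted p = 1).

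Ubtf, whose product UBF binds along active ribosomal RNA genes, had no peak at either end of its span (chromosome 11, 102304560 to 102323649, minus strand) but had peaks inside it. A site with summits at 102310848 and 102310868 had folds of 6.50 in Het replicate 1 and 8.0 in WT replicate 2. Another, with summits at 102309298 and 102309288, had folds of 4.52 in Het replicate 2 and 5.69 in WT replicate 3. In WT replicate 3 a peak with fold 6.10 lay 47 bp downstream of an internal transcription start of the promoter table, which lists 6 starts for this gene. The peaks inside Ubtf were thus spread over the 4 long Het and WT lists at different places, and no Homo library had one. The table used gives gene spans without exons, so exon or intron was not assigned.

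By genotype, 0 of 10 genes had a peak in at least 2 of 3 Homo libraries (0.238% of all genes), 3 of 10 in Het (3.98%) and 3 of 10 in WT (4.66%), the same 3 genes in both. Homo replicates 1, 2 and 3 had a peak at 1, 0 and 0 of the 10 genes, beside 0.324%, 0.0548% and 0.918% of all genes. The Het libraries had 3, 3 and 1, beside 5.58%, 6.14% and 0.854%, and the WT libraries 0, 3 and 5, beside 0.0731%, 4.86% and 14.1%. The 4 longest lists thus had 3 to 5 of the 10 genes and the 5 shorter lists 0 or 1. Taf1c and Rrn3 had a peak in 0 Homo libraries and at least 2 WT libraries, as did 3.7% of all genes, and in 0 Homo libraries and at least 2 Het libraries, as did 3.04%. They were 2 of the 3 listed genes with a peak in at least 2 WT or Het libraries. Most genes with such peaks also had none in Homo, namely 810 of 1019 for WT and 666 of 872 for Het. The pattern was thus not particular to these genes. None of the 10 had the opposite pattern, which 0% of all genes had in either comparison. Over all genes this direction turned round, on very few genes, with each list limited to its 51 highest peaks. A peak in at least 2 Homo and 0 WT libraries was then found at 7 genes (0.032%), against 1 gene (0.00457%) the other way. A peak in at least 2 Homo and 0 Het libraries was found at 5 genes (0.0228%), against 0 (0%) the other way. Between Het and WT, 0 of the 10 genes had a peak in at least 2 libraries of one genotype and 0 of the other (0.0868% of all genes for Het without WT and 0.649% for WT without Het).

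The test of peak presence over 3 genotypes called 0 of 3264 genes (0%) at an adjusted p under 0.05, and the smallest unadjusted exact permutation p over all genes was 0.143, so 0 genes had an unadjusted p under 0.05. When WT replicate 1 was left out, 201 genes had an unadjusted p under 0.05. The number was 19 when Het replicate 3 was left out and 0 to 6 for each of the other 7 libraries. None of the 10 genes was among them, and 0 genes passed the adjusted threshold in any of these 9 fits. In a pair of genotypes, 3 libraries against 3 cannot give a p under 0.1. Over 3 genotypes, presence scored as 0 or 1 in 3 libraries each allows few values of p. After adjustment over 3264 genes the test could hardly pass any gene. Not passing it therefore does not show that the genotypes were alike. Both counts of 2 genes without a Homo peak (Taf1c and Rrn3) fell to 0 without a library of the longer lists. This held for the WT count without WT replicate 2 or 3, and for the Het count without Het replicate 1 or 2. It follows from the rule, since each gene had a peak in exactly 2 WT and 2 Het libraries. Without Homo replicate 1 both counts were 3, with Polr1b added, since that library held its only Homo peak.

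The 3 recurrent genes differed in how high their peaks stood relative to what the other libraries could detect. The reads at each summit were divided by the background that the library had genome-wide, which gives a height that is scaled for sequencing depth and does not use the local input. At Polr1b this height was 28.6 in Homo replicate 1, 47.0, 50.9 and 23.0 in Het replicates 1, 2 and 3, and 35.4 and 35.9 in WT replicates 2 and 3. At Taf1c it was 39.2 and 53.5 in Het replicates 1 and 2 and 36.2 and 47.5 in WT replicates 2 and 3. At Rrn3 it was lower, at 20.9 and 21.9 in Het replicates 1 and 2 and 17.5 and 26.1 in WT replicates 2 and 3.

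The height that a peak would have needed to reach the lowest p of each list was then computed at the median relative input background of that gene. For Taf1c the 5 libraries without a peak needed between 17.6 (Het replicate 3) and 26.2 (Homo replicate 2), so a summit as high as in any of its 4 listed libraries would have been listed in each of them at that background, and also at the highest background measured at Taf1c, where the largest needed height was 27.5. In the Homo libraries the needed heights at Taf1c were 18.9, 26.2 and 19.2. For Polr1b the needed heights were 22.8 in Homo replicate 2, 16.4 in Homo replicate 3 and 19.0 in WT replicate 1, against its 6 listed heights of 23.0 to 50.9. At the highest relative background measured at Polr1b, that of Het replicate 3, they were 27.5, 20.9 and 23.4, so a summit as low as the 23.0 of Het replicate 3 would then have been missed in Homo replicate 2 and WT replicate 1, while the other 5 heights stayed above. For Rrn3 they were 17.6 to 26.2, which overlapped its listed heights of 17.5 to 26.1. Of its 4 listed heights, 1 fell below the height needed in each of Homo replicate 1, Homo replicate 3 and Het replicate 3. In WT replicate 1, 3 fell below it, and in Homo replicate 2 all 4 did. At the highest background measured at Rrn3, 2 to 4 of the 4 fell below it in each of the 5 libraries. At the lowest background measured at Rrn3, 4 of the 5 needed heights were below every listed height. Het replicate 3 and WT replicate 1 were among the 5 libraries without a Taf1c peak, so the absence was not confined to Homo. The heights are scaled for depth but not for how strongly each library was enriched for MYC-bound DNA. The backgrounds came only from libraries with a listed peak at the gene. Why a peak was absent from a list was therefore not tested.

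**Figure D3:**
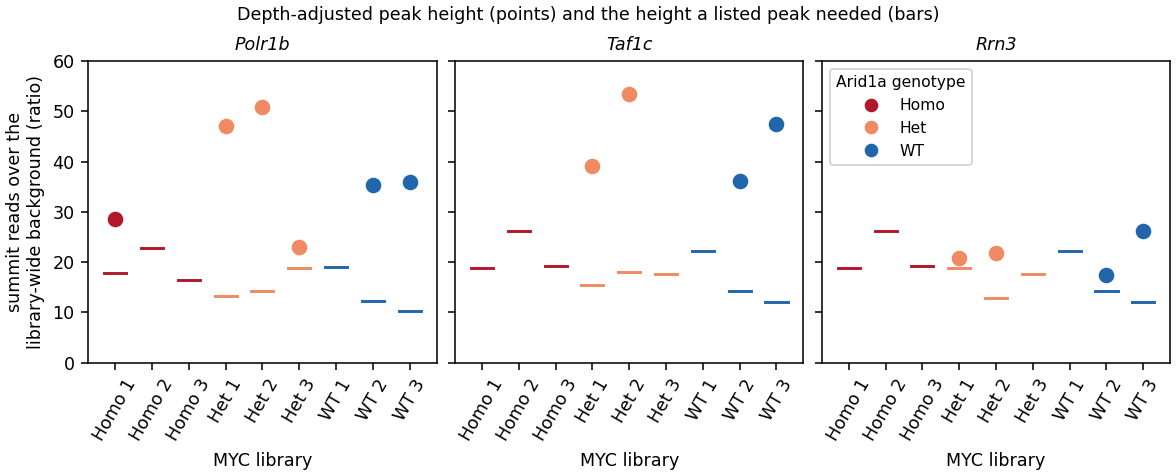
Summit reads over the library-wide background (ratio, vertical axis, from 0) at Polr1b, Taf1c and Rrn3 in each library (horizontal axis); points are listed peaks and short bars the height needed to reach the lowest p of that list. The points of Polr1b (23.0 to 50.9) and Taf1c (36.2 to 53.5) lie above every bar of the libraries without a peak, which were set at the gene's median background, while those of Rrn3 (17.5 to 26.1) lie among the bars.

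Other genes of RNA polymerase I transcription gave the setting for the list. Of 16 further genes, 8 (50%) had a peak in at least 2 libraries, beside 8.03% of all genes, and the median was 1.5 libraries. They were Nolc1 (6 libraries, folds 6.27 to 10.8), which encodes a nucleolar chaperone, Polr2h (5, folds 4.77 to 14.0), which encodes a subunit shared by the 3 polymerases, the polymerase I subunit gene Twistnb, also named Polr1f (4), the nucleolar protein gene Mybbp1a (4), the topoisomerase gene Top1 (3), the shared subunit gene Polr2f (2), the SL1 subunit gene Taf1d (2), and Tcof1 (2), which encodes the nucleolar protein treacle. Nolc1 was the only one of these with a Homo peak, in 1 library. Of 22 genes of the RNA polymerase III machinery, 8 (36.4%) were bound in at least 2 libraries, namely Polr3d (5 libraries, 1 of them Homo), Gtf3a, Polr3b, Polr3e and Polr3g (4 each), Gtf3c4 and Gtf3c6 (3 each) and Polr3a (2). Of 8 genes of subunits found only in RNA polymerase II, 1 was bound in at least 2 libraries (12.5%), Polr2b. These shares were not tested against each other.

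**Figure D4:**
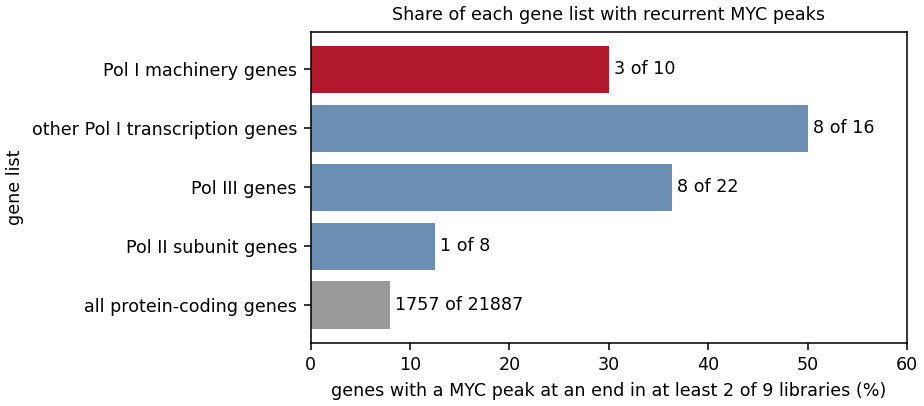
Share of genes with a MYC peak at an end in at least 2 of 9 libraries (percent, horizontal axis from 0) for the 10 genes described here, 3 lists of related genes and all protein-coding genes, with counts beside the bars. The share was 30% for the 10 genes, 50% for other genes of RNA polymerase I transcription and 8.03% for all genes.

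The presence pattern of Polr1b over the 9 libraries was shared exactly by 4 other protein-coding genes. Of these, 3 are given, in the order of the mean absolute difference from Polr1b in the percentage of the list with a lower fold, taken over the 6 libraries with a peak. Eef1e1, which encodes a protein of the multi-tRNA synthetase complex, differed by 18.9 percentage points. Slc7a1, a cationic amino acid transporter gene, differed by 26.2, and Nol9, which encodes a polynucleotide kinase of ribosomal RNA processing, by 34.5.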

How the data were processed

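The authors' peak lists of 9 MYC libraries were used, 1 list per library. The submitters' processing notes name the build mm10 and, with no settings, MACS2 2.0.10.20131216, Bowtie2 2.2.3, HOMER and Picard. Each deposited list gives a fold enrichment (a ratio over local background), −log10 p and −log10 q, an integer score equal to 10 times −log10 q without its decimals, and the summit offset. Input libraries entered only through the background in these lists. Gene spans and promoters came from RefSeq tables of GRCm38.p6. All 10 genes matched by symbol. Folds were used to describe and rank within a list.

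Reads at the summit and background were solved from the deposited fold and −log10 p, in the form MACS2 writes them (1 solution within 0.002 for 98.9% of 10376 peaks, including every peak at the 10 genes). Library-wide background is the lowest background of a list. Peak presence was compared by two-sided exact permutation of the sum of squares between genotypes, with Benjamini-Hochberg adjustment over all 3264 genes with a peak, in Python 3.11.15 and scipy 1.17.1, and was tested on simulated data.

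The genes, lists and alternatives were chosen with earlier results of these data known. Named were the 10 genes, neighbours within 1 kb of a summit, list genes with peaks in at least 2 libraries, and up to 5 genes with the pattern of the gene found in the most libraries. Of the genes with that pattern, 1, placed between the first and the last of those given, is not reported here. Needed heights at the lowest and highest background of each gene were added after seeing the data.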

Additional observations from a re-analysis of the deposited data

How the results depend on the processing

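The 12 counts were recomputed under 22 alternatives, and 211 of 233 values stayed within 1.5 times. These 211 include every count that was 0 at first, since each of those stayed at 0. All 22 values that moved belonged to the counts above 0. A change from 3 to 2 or to 4 was still within 1.5 times. With −log10 q of at least 5, with a fold of at least 5, with −log10 p of at least 10, and after thinning by calculation to the shallowest input (added after seeing the data), the genes with a peak in 0 Homo and at least 2 WT libraries numbered 1, as did those in 0 Homo and at least 2 Het libraries. Each time the gene was Taf1c, while Rrn3 kept 2 peaks, in Het replicate 2 and WT replicate 3. With each list limited to its 51 highest peaks by p, 1 gene (Polr1b) had a peak in at least 2 libraries, 0 did in at least 2 of 3 Het or WT libraries, and both counts without Homo were 0. Within 5 kb of an end, 5 genes had a peak in at least 2 libraries, with Polr1d and Ubtf added, against 11.0% of all genes. Leaving out each library in turn gave 3 genes bound in at least 2 libraries throughout, 1 to 3 in at least 2 Het libraries, 0 to 3 in at least 2 WT libraries, and 0 to 3 for either count without Homo. With 3 libraries as the minimum, the count was 3. This count and the 3 genes kept throughout follow from the numbers of libraries of Polr1b (6), Taf1c (4) and Rrn3 (4). Permuting within replicate number (replicate block) called 0 genes, as without the block. Same-numbered libraries correlated between -0.276 and 0.318 in their deviations, and differently numbered ones between -0.386 and 0.305. Of 9 libraries, 4 correlated best with a library of the same number. Whether the numbers pair the samples cannot be decided from these values. No member had a peak in all libraries of both genotypes of a pair, so the planned test of ranks gave no value.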
